A study of Mus musculus with 13 samples.

Results

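Fat storage genes were measured in tail vertebral bone and in bone lesions of mice with or without mutations in subunits of protein kinase A (PKA). The gene set has 38 members, taken by annotated symbol, that encode adipokines, lipid droplet coat proteins, fatty acid transporters, lipogenic enzymes, lipases and their transcription factors. Of these, 34 had a named probe on the array and 32 passed the detection filter, out of 10992 genes that passed it in all. Of all genes tested, 25.8% were lower in lesions than in bone without lesion and 26.2% were higher. Of the 32 members, 22 were lower, 1 (Acly) was higher and 9 did not pass the threshold. Among those that fell were the lipid droplet protein Cidec (7.43-fold lower), Plin4 (5.40-fold), leptin (Lep, 5.08-fold) and the lipase Pnpla2 (2.21-fold), whereas the droplet protein Plin2 and the synthetic enzymes Acaca, Fasn and Elovl6 did not pass.

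White adipocytes keep triglyceride in a single large lipid droplet coated by perilipins and CIDE proteins, and secrete hormones such as leptin and adiponectin. Fatty acids reach the droplet by uptake from lipoproteins or by synthesis from citrate, and are esterified onto glycerol phosphate. PKA drives the reverse path: it phosphorylates perilipin 1 and hormone-sensitive lipase, and the lipases Pnpla2, Lipe and Mgll then release fatty acids and glycerol in turn. Bone marrow of the mouse tail is rich in adipocytes. Several of the measured genes are not particular to fat cells, since Lpl, Cd36, Plin4, Plin5, Pnpla2 and Car3 are also well expressed in skeletal muscle.

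The series holds 13 Illumina bead arrays of total RNA from mice of 9 months on a C57BL/6x129Sv/B6 hybrid background. Caudal vertebral bone came from wild-type mice (WT, 4 arrays) and from mice with one Prkaca allele less (Prkaca+/-, 4 arrays). Caudal vertebral bone lesions came from Prkar1a+/- mice (3 arrays) and from Prkar1a+/-Prkaca+/- mice (double heterozygotes, 2 arrays). Prkar1a encodes a regulatory subunit that holds PKA in check and Prkaca its main catalytic subunit. Every lesion carried the Prkar1a+/- genotype and no bone without lesion did, so that the lesion and the germline allele cannot be told apart. The labels number the replicates without saying whether they came from separate mice, and p-values therefore measure the spread between these samples, which may be technical.

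Levels are log2 intensities after background correction and quantile normalization. On this scale a probe without detectable signal lies near 4.3 to 5 and can reach about 5.3. Differences are log2 values with their standard error (SE), and a gene passed where the Benjamini-Hochberg adjusted p of limma, over all 16226 tested probes, was under 0.05. Per array, 52.7% to 57.7% of the 25697 probes were detected (detection p under 0.01). Prkar1a lay at 12.49 to 12.70 on the 8 arrays without lesion and at 10.95 to 11.40 on the 5 lesion arrays. Prkaca lay at 11.33 to 11.62 on the WT arrays, at 10.19 to 10.93 on the Prkaca+/- arrays, at 10.99, 10.02 and 10.08 in Prkar1a+/- lesions and at 9.68 and 9.19 in double heterozygote lesions. The osteoblast list averaged 8.85 to 9.97 without lesion and 11.82 to 12.53 in lesions. The skeletal muscle list (18 of 19 markers tested) averaged 13.60 to 13.95 without lesion and 10.18 to 13.45 in lesions, and muscle genes were thus detected in the labelled bone. In such bulk samples, fewer cells of a type and less RNA per cell cannot be told apart.

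The promoter stretches of 5 genes that fell in lesions are shown, chosen at starts with a match to a motif named below. Each is the 250 bases before an annotated RefSeq start (build GRCm38.p6), on the gene's own strand. Capitals mark matches to a C/EBP motif (TTNNGCAA, or TTGCNNAA on the other strand) or to the half-site of a cAMP response element (TGACG, or CGTCA on the other strand), the element bound by the PKA-activated factor CREB.
Lep (chr6:29059971-29060220, plus strand): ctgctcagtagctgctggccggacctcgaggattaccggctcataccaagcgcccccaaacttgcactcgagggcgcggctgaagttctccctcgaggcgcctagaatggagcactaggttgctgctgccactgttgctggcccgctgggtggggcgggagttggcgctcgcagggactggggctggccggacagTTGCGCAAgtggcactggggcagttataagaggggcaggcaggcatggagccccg
Cidec, second of 2 starts (chr6:113434765-113435014, minus strand): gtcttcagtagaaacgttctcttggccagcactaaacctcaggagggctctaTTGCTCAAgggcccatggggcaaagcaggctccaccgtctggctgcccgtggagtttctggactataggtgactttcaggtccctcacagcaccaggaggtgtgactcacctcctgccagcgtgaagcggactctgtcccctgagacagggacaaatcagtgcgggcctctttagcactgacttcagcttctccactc
Plin1 (chr7:79732777-79733026, minus strand): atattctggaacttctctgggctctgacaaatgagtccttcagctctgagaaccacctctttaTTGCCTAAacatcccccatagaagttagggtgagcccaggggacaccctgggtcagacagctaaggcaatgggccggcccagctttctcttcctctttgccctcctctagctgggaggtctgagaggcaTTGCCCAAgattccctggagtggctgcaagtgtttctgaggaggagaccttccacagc
Pparg, last of 3 starts (chr6:115421816-115422065, plus strand): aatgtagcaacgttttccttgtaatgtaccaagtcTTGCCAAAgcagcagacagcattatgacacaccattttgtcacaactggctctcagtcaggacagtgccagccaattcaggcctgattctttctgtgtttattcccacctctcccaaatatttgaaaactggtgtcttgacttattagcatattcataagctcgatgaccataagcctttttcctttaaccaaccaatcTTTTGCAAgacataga
Pck1 (chr2:173152823-173153072, plus strand): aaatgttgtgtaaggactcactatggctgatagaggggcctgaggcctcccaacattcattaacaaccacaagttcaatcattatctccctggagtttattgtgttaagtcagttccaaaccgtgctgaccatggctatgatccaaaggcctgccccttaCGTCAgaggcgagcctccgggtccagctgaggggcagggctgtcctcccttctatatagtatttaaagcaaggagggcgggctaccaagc
The Lep match begins 55 bases before the start, the Cidec match 198 bases before it, the Plin1 matches 187 and 58 bases before it, the Pparg matches 215 and 16 bases before it, and the cAMP half-site of Pck1 90 bases before it. Windows of 300 bases, from 250 before to 50 after the start, were searched on both strands in 39 promoters of 29 member genes and in all 32851 RefSeq promoters. The C/EBP motif was in 4 of the 39 (10.3%) and in 10.8% of all promoters. Those 4 are the Lep, Cidec, Plin1 and Pparg stretches shown, and the other starts of Cidec and Pparg held neither marked motif. This cAMP half-site was in 4 of the 39 (10.3%) and in 20.8% of all promoters. The whole element (TGACGTCA) was in 1 of the 39 and in 1.79% of all. The nuclear receptor half-site (AGGTCA) was in 11 of the 39 (28.2%) and in 16.3% of all. An E-box (CACGTG) was in 3 of the 39 against 7.15% of all, and the sterol element (TCACNCCAC) was in 0 of the 39 against 1.24% of all. A match is a run of letters and was not tested as a binding site.

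The first comparison set the 5 lesion arrays against the 8 arrays without lesion, as the mean of both lesion groups minus the mean of both other groups. The 22 of 32 members that fell stand beside a background of 25.8% of all genes that were lower, and the 1 that rose beside 26.2% that were higher. The median difference was -1.02 over the 32 members and -0.01 over all genes. For 14 members every lesion array lay below every array without lesion, as did 13.2% of all genes. Of the 22 members detected on every array, 14 fell and 1 rose, and the share among all genes so detected is not given. The remaining 10 include Aqp7 and Thrsp, which were detected on no lesion array and so entered the test only through bone without lesion.

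**Figure D1:**
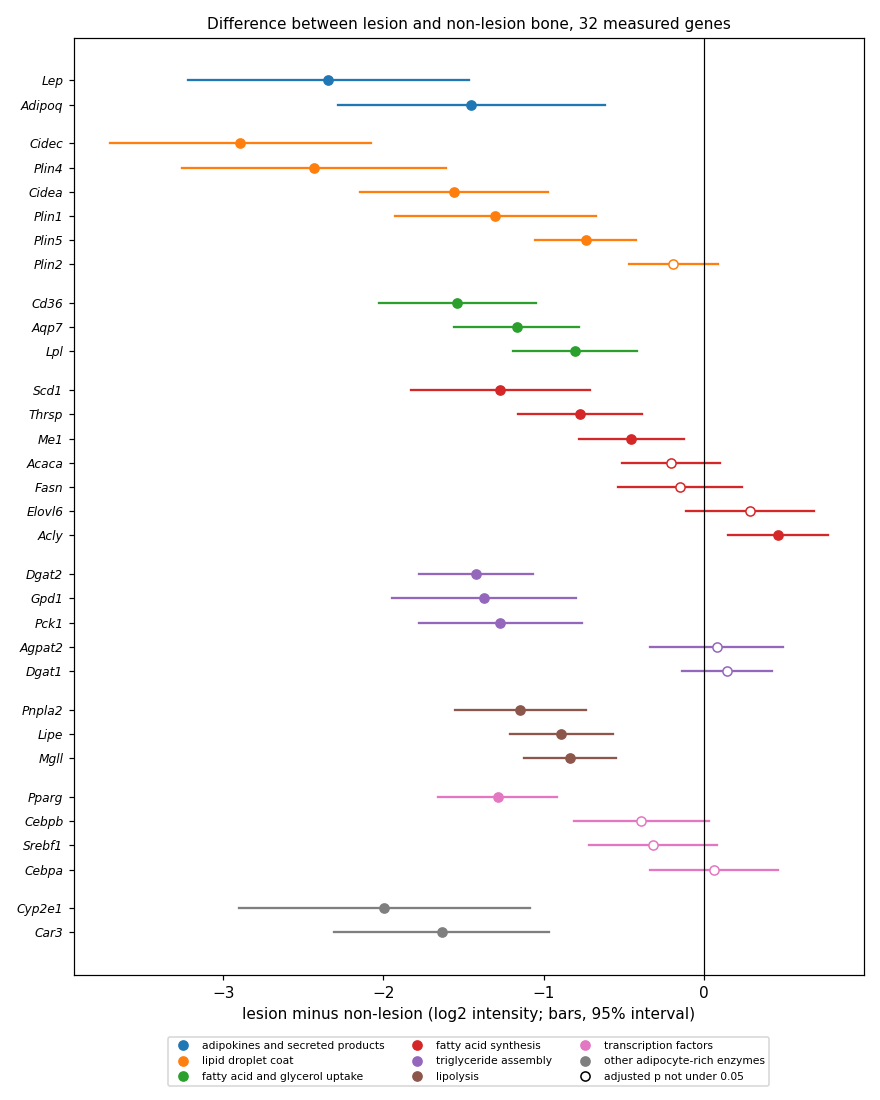
Difference between lesion and non-lesion bone (log2 intensity, x axis) for the 32 measured genes, grouped by role, with the 95% interval as a bar. Filled points have an adjusted p under 0.05, and the largest fall is that of Cidec at -2.89.

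Both adipokines with a tested probe fell. Leptin, the satiety hormone of fat cells, lay at 9.24, 8.38, 9.01 and 8.86 on the WT arrays and at 9.20, 9.58, 10.28 and 10.40 on the Prkaca+/- arrays. The lesion arrays gave 8.30, 5.45 and 7.84 (Prkar1a+/-) and 6.74 and 6.96 (double heterozygotes). Every lesion array was below every array without lesion, with a difference of -2.34 ± 0.40 (SE, adjusted p = 0.000443), and Prkar1a+/- lesion 2 was close to the background. Adiponectin (Adipoq), an abundant hormone of fat cells that sensitises tissues to insulin, lay at 11.63, 11.84, 11.09 and 11.07 on the WT arrays and at 11.59, 11.70, 12.23 and 12.67 on the Prkaca+/- arrays. Lesion levels were 11.34, 8.60 and 10.80 (Prkar1a+/-) and 10.13 and 10.49 (double heterozygotes). Here Prkar1a+/- lesion 1 lay within the range of the WT arrays while the other 4 lesion arrays were below it, and the difference was -1.45 ± 0.39 (SE, adjusted p = 0.00700). The adipokine resistin (Retn) was detected on 1 array only, Prkaca+/- 4, at 6.32, and was not tested. Cfd, which encodes adipsin, had no named probe.

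Of the 6 lipid droplet coat genes, 5 fell and Plin2 did not pass. Cidec, which joins droplets into the single large droplet of white fat cells, lay at 9.57, 9.08, 9.78 and 9.55 on the WT arrays and at 9.27, 9.87, 10.20 and 10.03 on the Prkaca+/- arrays. On the lesion arrays it read 8.11, 5.31 and 7.64 (Prkar1a+/-) and 6.61 and 6.46 (double heterozygotes). All lesion arrays were below all others, with the largest fall of the set (-2.89 ± 0.38, SE, adjusted p = 6.64e-05). Plin4, a coat protein of nascent droplets, lay at 12.31, 11.80, 12.65 and 12.38 on the WT arrays and at 12.49, 12.87, 12.29 and 12.73 on the Prkaca+/- arrays. Lesion values were 11.33, 8.33 and 10.34 (Prkar1a+/-) and 9.76 and 10.26 (double heterozygotes). The groups did not overlap, and the difference was -2.43 ± 0.38 (SE, adjusted p = 0.000229). Cidea, a relative of Cidec that is typical of brown fat, lay at 7.41, 6.39, 7.55 and 7.15 on the WT arrays and at 7.71, 7.49, 7.36 and 7.38 on the Prkaca+/- arrays. In lesions its level was 6.65, 5.03 and 5.11 (Prkar1a+/-) and 6.09 and 5.71 (double heterozygotes). It was detected on 3 of 5 lesion arrays. Prkar1a+/- lesion 1 overlapped the lowest WT array, and the difference was -1.56 ± 0.27 (SE, adjusted p = 0.000465).

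Perilipin 1 (Plin1), the PKA-regulated gatekeeper of the droplet surface, lay at 6.75, 6.59, 5.68 and 5.74 on the WT arrays and at 6.77, 6.58, 6.54 and 7.49 on the Prkaca+/- arrays. In lesions it lay at 6.20, 4.52 and 5.20 (Prkar1a+/-) and at 4.89 and 5.37 (double heterozygotes). It too was detected on 3 of 5 lesion arrays. The 2 lowest WT arrays were below Prkar1a+/- lesion 1, and the difference was -1.30 ± 0.29 (SE, adjusted p = 0.00246). Plin5, the coat protein of muscle and other oxidative tissue, lay at 5.70, 5.49, 5.75 and 5.67 on the WT arrays and at 5.64, 6.47, 5.72 and 5.99 on the Prkaca+/- arrays. The lesion arrays gave 5.42, 5.21 and 4.98 (Prkar1a+/-) and 5.07 and 4.80 (double heterozygotes). All lesion arrays lay below the others, 2 of the 5 with detected signal, and the fitted difference was -0.74 ± 0.15 (SE, adjusted p = 0.00106). Plin2, which coats the small droplets of most cell types, lay at 7.51, 7.85, 7.54 and 8.005 on the WT arrays and at 7.50, 8.04, 7.89 and 7.70 on the Prkaca+/- arrays. Lesion levels were 7.55, 7.42 and 7.76 (Prkar1a+/-) and 7.65 and 7.45 (double heterozygotes). The groups overlapped, and the 95% interval of the difference ran from -0.47 to 0.09 around -0.19 (adjusted p = 0.234).

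**Figure D2:**
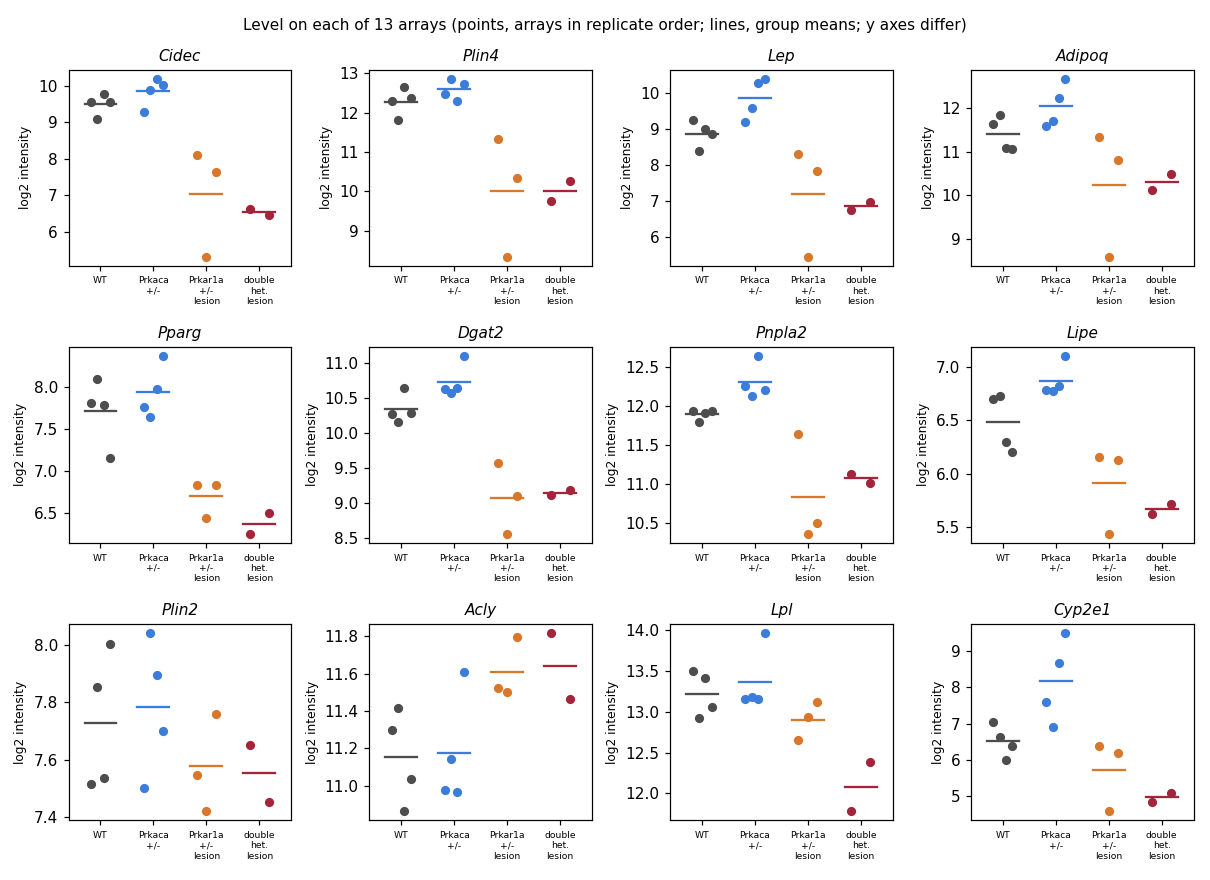
Log2 intensity of 12 genes (y axis, scale differing by panel) on each of the 13 arrays by group, with points for arrays and lines for group means. Cidec, Plin4, Lep, Pparg, Dgat2, Pnpla2 and Lipe have all lesion arrays below all others, Plin2 overlaps, and Acly is higher in lesions.

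All 3 tested genes of fatty acid and glycerol uptake fell. The fatty acid translocase Cd36 lay at 7.50, 6.93, 7.33 and 7.04 on the WT arrays and at 7.23, 7.93, 7.27 and 7.88 on the Prkaca+/- arrays. On the lesion arrays it read 6.56, 5.07 and 5.96 (Prkar1a+/-) and 5.81 and 5.86 (double heterozygotes). It was detected on 4 of 5 lesion arrays. The groups did not overlap and differed by -1.54 ± 0.23 (SE, adjusted p = 0.000152). Aqp7, the channel through which glycerol leaves fat cells, lay at 6.30, 5.77, 5.67 and 5.99 on the WT arrays and at 5.93, 5.29, 6.45 and 6.16 on the Prkaca+/- arrays. Lesion values were 4.995, 4.67 and 4.86 (Prkar1a+/-) and 4.74 and 4.68 (double heterozygotes). It was detected on 7 of 8 arrays without lesion and on 0 of 5 lesion arrays, so its level in lesions is only bounded. By group means, which leave out sampling error, it was at least 1.67-fold lower (fitted difference -1.17 ± 0.18, SE, adjusted p = 0.000205). Its 2 other tested probes gave -1.10 each. Lipoprotein lipase (Lpl), which frees fatty acids from circulating lipoproteins, lay at 13.51, 12.92, 13.42 and 13.06 on the WT arrays and at 13.16, 13.19, 13.16 and 13.97 on the Prkaca+/- arrays. In lesions its level was 12.65, 12.93 and 13.13 (Prkar1a+/-) and 11.78 and 12.38 (double heterozygotes). The Prkar1a+/- lesions overlapped the arrays without lesion and the double heterozygote lesions did not, and the overall difference was -0.80 ± 0.18 (SE, adjusted p = 0.00238). The fatty acid carrier Fabp4, a usual marker of fat cells, gave no detectable signal on any of the 13 arrays (4.34 to 4.89), and nothing can be said of it from this probe.

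Fatty acid synthesis was mixed: of 7 tested genes 3 fell, 1 rose and 3 did not pass. The desaturase Scd1, which makes oleate, lay at 14.11, 14.27, 13.43 and 13.35 on the WT arrays and at 13.81, 13.74, 14.02 and 14.95 on the Prkaca+/- arrays. In lesions it lay at 13.29, 12.11 and 12.86 (Prkar1a+/-) and at 12.45 and 12.80 (double heterozygotes). All lesion arrays lay below the others, with a difference of -1.27 ± 0.26 (SE, adjusted p = 0.00134). Thrsp, a lipogenic regulator of fat and liver, lay at 5.75, 5.72, 5.67 and 5.05 on the WT arrays and at 5.71, 5.32, 6.14 and 5.51 on the Prkaca+/- arrays. The lesion arrays gave 5.07, 4.38 and 5.06 (Prkar1a+/-) and 4.83 and 4.84 (double heterozygotes). Prkar1a+/- lesions 1 and 3 were level with WT 4. It was detected on 6 of 8 arrays without lesion and on 0 of 5 lesion arrays. By group means, without sampling error, it was at least 1.32-fold lower in lesions (fitted difference -0.77 ± 0.18, SE, adjusted p = 0.00307). Malic enzyme (Me1), a source of NADPH for synthesis, lay at 11.78, 11.21, 11.79 and 12.02 on the WT arrays and at 11.78, 11.48, 11.60 and 11.37 on the Prkaca+/- arrays. Lesion levels were 11.47, 10.87 and 10.98 (Prkar1a+/-) and 11.21 and 11.28 (double heterozygotes). The groups overlapped, and the difference of -0.45 ± 0.15 (SE, adjusted p = 0.0235) no longer passed without any single one of Prkar1a+/- lesions 2 and 3 or double heterozygote lesions 1 and 2 (adjusted p = 0.0533 to 0.0761). Its other tested probe gave -0.61 ± 0.14 (SE, adjusted p = 0.00270).

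ATP citrate lyase (Acly), which makes the acetyl-CoA for fatty acids and sterols in most cells, lay at 11.30, 11.41, 10.86 and 11.03 on the WT arrays and at 10.97, 11.14, 10.96 and 11.61 on the Prkaca+/- arrays. On the lesion arrays it read 11.53, 11.50 and 11.80 (Prkar1a+/-) and 11.82 and 11.47 (double heterozygotes). It was the one member that rose (0.46 ± 0.14, SE, adjusted p = 0.0166), and all lesion arrays were above all others except Prkaca+/- 4. The rise did not pass with 75th percentile scaling in place of quantile normalization (0.27, adjusted p = 0.0837) or without double heterozygote lesion 1 (0.37, adjusted p = 0.0941). Acaca, the first committed enzyme of synthesis, differed by -0.20 ± 0.14 (SE, adjusted p = 0.249), and the fatty acid synthase Fasn, detected on 7 of 13 arrays, by -0.15 ± 0.18 (adjusted p = 0.521). The elongase Elovl6 differed by 0.29 ± 0.19 (adjusted p = 0.212). Acacb had no named probe.

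In triglyceride assembly 3 of 5 genes fell and 2 did not pass. Dgat2, which adds the last fatty acid to triglyceride in fat cells, lay at 10.27, 10.16, 10.63 and 10.29 on the WT arrays and at 10.62, 10.57, 10.64 and 11.10 on the Prkaca+/- arrays. Lesion values were 9.58, 8.56 and 9.10 (Prkar1a+/-) and 9.11 and 9.19 (double heterozygotes). The groups were far apart, with a difference of -1.42 ± 0.16 (SE, adjusted p = 2.95e-05). Its unrelated counterpart Dgat1, which catalyses the same step, differed by 0.15 ± 0.13 (SE, adjusted p = 0.373). Gpd1, which makes glycerol phosphate from glycolysis, lay at 6.81, 6.75, 7.76 and 7.79 on the WT arrays and at 7.21, 7.13, 6.68 and 7.25 on the Prkaca+/- arrays. In lesions its level was 6.63, 5.25 and 5.87 (Prkar1a+/-) and 5.27 and 6.10 (double heterozygotes). Its lesion arrays were all below the others, with a difference of -1.37 ± 0.27 (SE, adjusted p = 0.000963). Pck1, whose product feeds glyceroneogenesis in fat, lay at 7.06, 6.42, 6.59 and 6.09 on the WT arrays and at 7.32, 6.46, 7.25 and 7.23 on the Prkaca+/- arrays. In lesions it lay at 6.25, 4.91 and 5.55 (Prkar1a+/-) and at 5.64 and 5.35 (double heterozygotes). Only Prkar1a+/- lesion 1 reached into the range of bone without lesion, 4 of 5 lesion arrays gave detected signal, and the difference was -1.27 ± 0.24 (SE, adjusted p = 0.000715). The acyltransferase Agpat2 differed by 0.08 ± 0.19 (adjusted p = 0.746).

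The 3 lipases of the PKA-driven lipolytic path all fell, and none overlapped between lesions and bone without lesion. Of all genes, 25.8% were lower and 13.2% had every lesion array below every other array. Pnpla2 (ATGL), which takes the first fatty acid from triglyceride, lay at 11.93, 11.80, 11.91 and 11.94 on the WT arrays and at 12.25, 12.13, 12.64 and 12.20 on the Prkaca+/- arrays. The lesion arrays gave 11.65, 10.36 and 10.51 (Prkar1a+/-) and 11.13 and 11.02 (double heterozygotes). The difference was -1.14 ± 0.19 (SE, adjusted p = 0.000336), and Prkar1a+/- lesion 1 lay close below the WT arrays. Hormone-sensitive lipase (Lipe), the direct PKA substrate that takes the second, lay at 6.70, 6.73, 6.30 and 6.20 on the WT arrays and at 6.79, 6.77, 6.82 and 7.11 on the Prkaca+/- arrays. Lesion levels were 6.16, 5.44 and 6.13 (Prkar1a+/-) and 5.62 and 5.71 (double heterozygotes). The difference was -0.89 ± 0.15 (SE, adjusted p = 0.000361). Mgll, which cleaves the last fatty acid, lay at 10.78, 10.89, 10.47 and 10.34 on the WT arrays and at 10.73, 10.74, 10.53 and 11.08 on the Prkaca+/- arrays. On the lesion arrays it read 10.23, 9.83 and 9.79 (Prkar1a+/-) and 9.73 and 9.80 (double heterozygotes). The difference was -0.83 ± 0.13 (SE, adjusted p = 0.000273), and its 2 other tested probes gave -0.71 and -1.09. Pnpla3 and the β3-adrenergic receptor Adrb3, which couples adrenaline to PKA in fat cells, had no named probe.

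Of the 4 transcription factors 1 fell. Pparg, the master regulator of fat cell differentiation, lay at 7.82, 8.10, 7.79 and 7.16 on the WT arrays and at 7.76, 7.64, 7.98 and 8.37 on the Prkaca+/- arrays. Lesion values were 6.83, 6.44 and 6.84 (Prkar1a+/-) and 6.25 and 6.50 (double heterozygotes). All lesion arrays were below all others, with a difference of -1.29 ± 0.17 (SE, adjusted p = 7.69e-05), and its second tested probe gave -1.23. Its partner Cebpa, which maintains the fat cell state, differed by 0.07 ± 0.19 with a 95% interval of -0.34 to 0.47 (adjusted p = 0.793). Cebpb, an early factor of differentiation, differed by -0.39 ± 0.19 (adjusted p = 0.112) and passed with 75th percentile scaling (-0.59, adjusted p = 0.0330). The lipogenic factor Srebf1 differed by -0.32 ± 0.18 (adjusted p = 0.168) and passed without double heterozygote lesion 2 (-0.62, adjusted p = 0.00565).

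The remaining members are a pair of enzymes abundant in fat. Carbonic anhydrase 3 (Car3), abundant in fat and in slow muscle, lay at 14.97, 14.13, 14.77 and 14.92 on the WT arrays and at 14.77, 14.83, 14.46 and 14.75 on the Prkaca+/- arrays. In lesions its level was 13.87, 11.63 and 13.51 (Prkar1a+/-) and 12.96 and 13.29 (double heterozygotes). The groups did not overlap and differed by -1.63 ± 0.31 (SE, adjusted p = 0.000825). The cytochrome Cyp2e1 lay at 7.05, 6.62, 5.98 and 6.37 on the WT arrays and at 7.58, 6.91, 8.67 and 9.50 on the Prkaca+/- arrays. In lesions it lay at 6.39, 4.58 and 6.19 (Prkar1a+/-) and at 4.84 and 5.09 (double heterozygotes). Its Prkaca+/- arrays spread widely, its lesion arrays (2 of 5 detected) overlapped the WT arrays, and the overall fitted difference was -1.99 ± 0.42 (SE, adjusted p = 0.00164). On the deposited scores it did not pass (adjusted p = 0.231).

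The lesion arrays kept a similar order across the members that fell. The order among all genes that fell is not given, so it is not shown to be particular to the fat genes. Among the 22 genes that fell, Prkar1a+/- lesion 2 was the lowest lesion array in 18, double heterozygote lesion 1 in 3 and double heterozygote lesion 2 in 1. Prkar1a+/- lesion 1 was the highest in 20 and Prkar1a+/- lesion 3 in 2. The median difference of the 22 genes from the mean of bone without lesion was -0.65, -1.91 and -1.17 in Prkar1a+/- lesions 1, 2 and 3, and -1.51 and -1.25 in double heterozygote lesions 1 and 2. On the arrays without lesion it ranged from -0.37 to 0.41. The 22 were taken for their fall in lesions; over all 32 members the medians were -0.53, -1.26 and -0.92 in Prkar1a+/- lesions and -1.16 and -1.04 in double heterozygote lesions. Without Prkar1a+/- lesion 2, 21 members still fell, and the share of all genes that fell in that fit is not given.

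**Figure D3:**
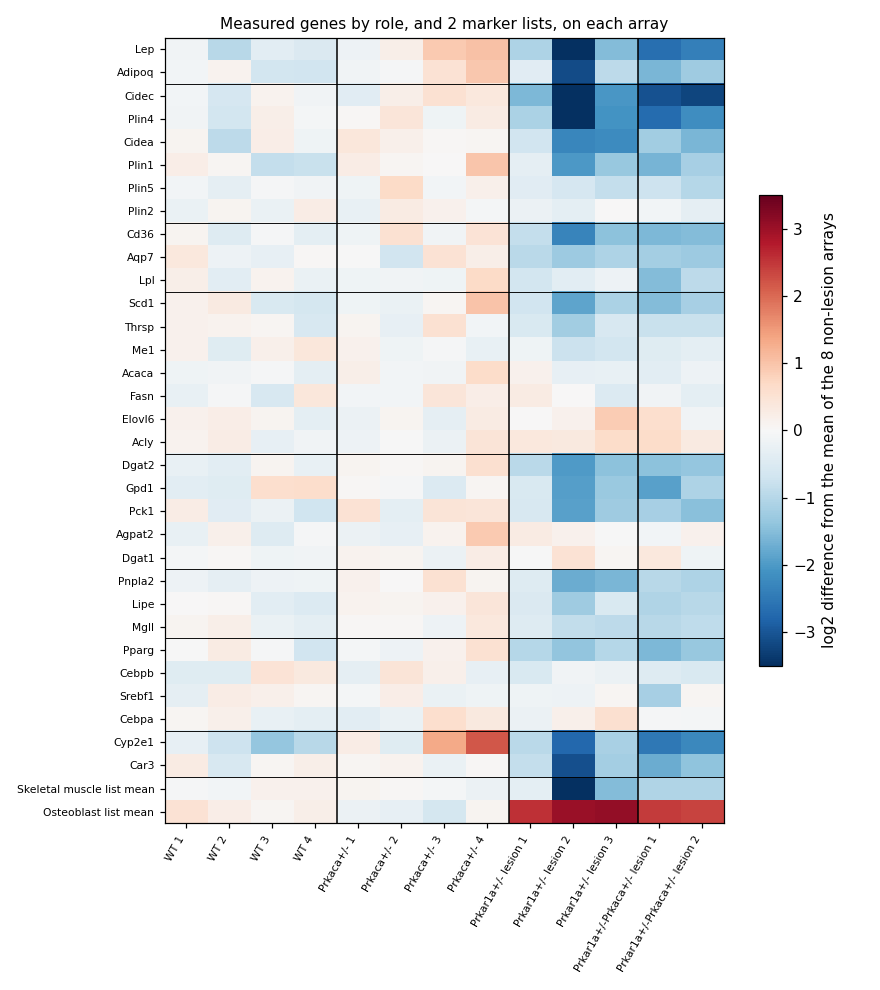
Log2 difference of each measured gene from the mean of the 8 arrays without lesion (colour, with the scale ending at 3.5 in both directions), by array, above the means of the skeletal muscle and osteoblast lists. Prkar1a+/- lesion 2 has the lowest values of Lep, Cidec, Plin4 and the muscle list, whereas the osteoblast list is higher on all 5 lesion arrays.

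The skeletal muscle list was lowest and highest on the same lesion arrays as the fat genes. Its mean was 13.45, 10.18 and 12.28 in Prkar1a+/- lesions 1, 2 and 3, and 12.76 and 12.75 in double heterozygote lesions 1 and 2. The summed linear level of its 18 genes ranged from 400191 to 452808 without lesion and from 70986 to 377103 in lesions. Neither these sums nor the means overlapped between lesions and bone without lesion, so the list as a covariate cannot separate muscle from lesion. With the mean of this list as a covariate, 12 of the 22 genes still fell in lesions (Lep, Plin4, Plin5, Cidec, Lpl, Cd36, Aqp7, Dgat2, Lipe, Pnpla2, Mgll and Pparg), beside 7.80% of all genes in that fit. None rose, and the median difference over the 32 members was -0.66. Adiponectin, at -0.32 ± 0.36 (SE, adjusted p = 0.585), was among those that did not pass. The erythroid list (3 of 8 markers tested) averaged 7.91 to 9.90 without lesion and 6.73 to 7.84 in lesions, and the macrophage list (8 of 10) 7.21 to 8.73 and 7.99 to 9.76. The endothelial list (6 of 6) averaged 7.32 to 7.80 and 7.50 to 8.13, and the keratinocyte and sebaceous gland list (7 of 12) 6.47 to 8.25 and 5.91 to 8.79. The part of muscle or of these other cell types in the result was not tested.

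**Figure D4:**
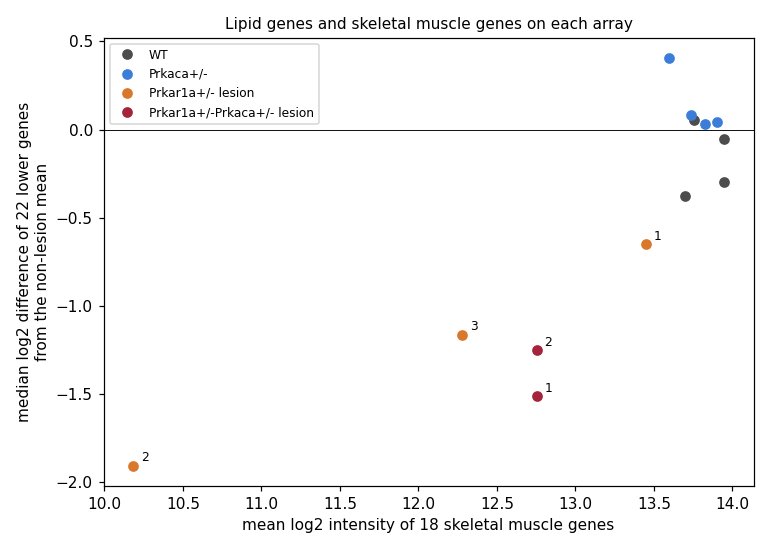
Median log2 difference of the 22 genes that fell (y axis, from the mean of bone without lesion) against the mean log2 intensity of 18 skeletal muscle genes (x axis) on each of the 13 arrays. Prkar1a+/- lesion 2 lies lowest on both axes and Prkar1a+/- lesion 1 lies nearest to the arrays without lesion.

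Each lesion group was next set against bone that shares its Prkaca genotype. The comparisons share no array, but all 13 arrays were normalized together and gave one estimate of the spread. Their calls are therefore not fully independent. Prkar1a+/- lesions against WT gave 17 members that fell, beside 19.3% of all genes, none that rose, and a median of -0.75. Double heterozygote lesions against Prkaca+/- bone gave 21 that fell, beside 13.5% of all genes, none that rose, and a median of -1.24. Of the 32 members, 16 fell in both: Aqp7, Car3, Cd36, Cidea, Cidec, Dgat2, Gpd1, Lep, Lipe, Mgll, Pck1, Plin4, Pnpla2, Pparg, Scd1 and Thrsp. The share of all genes that fell in both is not given, so this count has no background beside it. Another tested probe of Mgll did not pass against WT (-0.39, adjusted p = 0.0796), and a further one did (-0.89, adjusted p = 0.00584). Me1 passed only against WT (-0.59, adjusted p = 0.0321, against -0.31 and 0.320), and Adipoq, Cyp2e1, Lpl, Plin1 and Plin5 only against Prkaca+/-.

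Values against WT depended on Prkar1a+/- lesion 2: without it 6 of the 17 called differences were over 1.5 times smaller. For Cidec the differences were -2.48 ± 0.50 (SE) against WT and -3.31 ± 0.57 against Prkaca+/-, and for Plin4 they were -2.28 ± 0.50 and -2.59 ± 0.57. Without that lesion array the differences from WT were -1.62 (Cidec) and -1.45 (Plin4), and both still passed. Leptin fell by 1.68 on the log2 scale against WT (adjusted p = 0.0251) and by 3.01 against Prkaca+/- (adjusted p = 0.00434). The difference from WT was -0.80 (adjusted p = 0.0925) without Prkar1a+/- lesion 2, and it also missed the threshold without WT 1 (adjusted p = 0.0570) or WT 3 (adjusted p = 0.0548). Adiponectin differed by -1.16 ± 0.51 (adjusted p = 0.0878) against WT and -1.74 ± 0.58 (adjusted p = 0.0400) against Prkaca+/-. Without Prkar1a+/- lesion 2 the first was -0.34, and the second no longer passed without any single one of Prkaca+/- 2, 3 and 4 or either double heterozygote lesion (adjusted p = 0.0522 to 0.203). Plin1 gave -0.88 (adjusted p = 0.0853) and -1.72 (adjusted p = 0.0130), and Lpl -0.32 (adjusted p = 0.300) and -1.28 (adjusted p = 0.00522). Among the lipases, Pnpla2 gave -1.06 and -1.23, Lipe -0.58 and -1.20, and Mgll -0.67 and -1.002. Lipe differed from WT by -0.34 (adjusted p = 0.194) without Prkar1a+/- lesion 2. Cyp2e1 was detected on 0 of the 2 double heterozygote lesion arrays. By group means it was at least 7.93-fold lower there than in Prkaca+/- bone (adjusted p = 0.00383). It gave -0.78 ± 0.55 (adjusted p = 0.282) against WT. Plin5, on the same ground, was at least 1.71-fold lower in double heterozygotes by group means. Both bounds leave out sampling error, and the 95% interval of the Plin5 difference ran from -1.49 to -0.55. The difference was the more negative in double heterozygotes for 29 of 32 members. The contrast between both lesion effects had a median of -0.37 over the members, and 48.0% of all genes were above 0 in it (median -0.01). The test of this contrast called 0 members and 0 of all genes. It is also the difference between both lesion groups minus that between both groups without lesion. Those differences had member medians of -0.13 (double heterozygote against Prkar1a+/- lesions) and 0.26 (Prkaca+/- against WT). In the same contrast the skeletal muscle markers were on the other side (18 of 18 above 0, median 0.95), as were the keratinocyte and sebaceous gland markers (7 of 7, median 1.93), and the erythroid markers were below 0 (3 of 3, median -0.57). Their part in the members' differences was not tested. At an unadjusted p under 0.05 it gave 2 members, Cyp2e1 (-2.42, 95% interval -4.23 to -0.61) and Lpl (-0.96, 95% interval -1.74 to -0.19), beside 2.56% of all genes.

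These counts depend on single arrays, and no share of all genes is given for the fits without an array. Against WT, 10 members fell without Prkar1a+/- lesion 2 and 11 without WT 1. Against Prkaca+/-, 11 fell without double heterozygote lesion 1 and 14 without double heterozygote lesion 2. With the muscle list as a covariate, which cannot be told apart from the lesion, 0 members fell against WT (median -0.30). This stands beside 1.20% of all genes in that fit. Against Prkaca+/-, 15 fell (median -0.94), beside 6.21% of all genes.

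**Figure D5:**
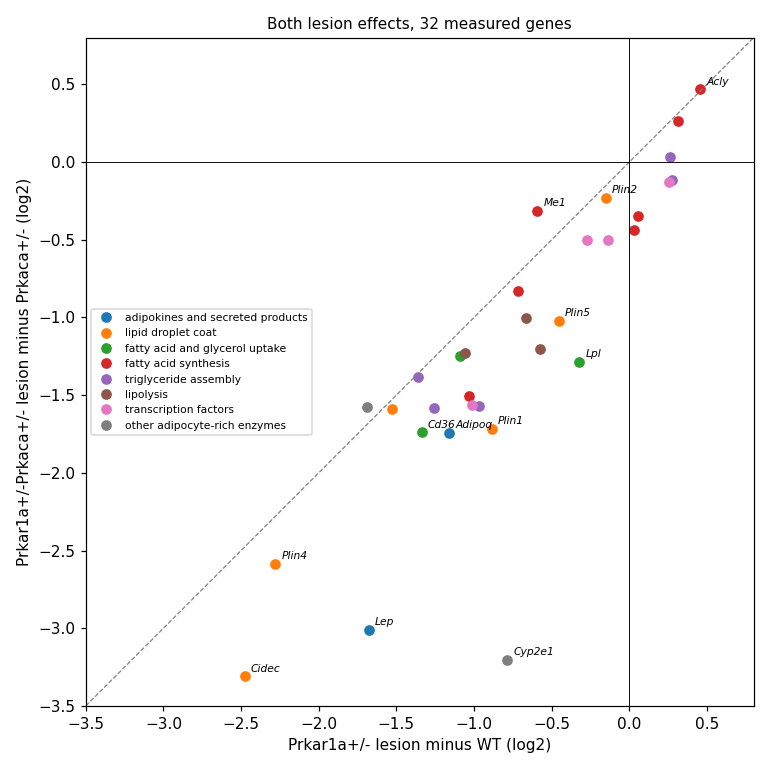
Difference of Prkar1a+/- lesions from WT (x axis, log2) and of double heterozygote lesions from Prkaca+/- bone (y axis, log2) for the 32 measured genes, coloured by role, with the line of equal differences dashed. Most points lie below the line, Cyp2e1 (-0.78 and -3.20) farthest from it, and Acly lies on it (0.46 and 0.47).

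Double heterozygote lesions were also set directly against Prkar1a+/- lesions, which asks what one Prkaca allele less does among lesions. No member and no gene passed. At an unadjusted p under 0.05 there was 1 member, Lpl (-0.82 ± 0.28, SE), beside 3.49% of all genes. The median over the 32 members was -0.13, and 9 differences were above 0, against 48.9% of all genes above 0 and a median of -0.01.

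The loss of one Prkaca allele in bone without lesion moved no member past the threshold, and none of all 10992 genes either. The members lay mostly on one side: 28 of 32 differences between Prkaca+/- and WT were above 0, with a median of 0.26, against 51.7% of all genes above 0 and a median of 0.01. Members were measured on the same arrays and are not independent of each other. Marker lists of other cell types lay to one side as well: 0 of 9 osteoblast markers (median -0.48) and 1 of 7 keratinocyte and sebaceous gland markers (median -0.35) were above 0, against 3 of 3 erythroid markers (median 0.45). No marker of these lists passed, and their part in the members' shift was not tested. Cyp2e1 alone had an unadjusted p under 0.05 (1.66 ± 0.51, SE, 95% interval 0.55 to 2.77, adjusted p = 1.00), beside 1.53% of all genes. For Lipe and Pnpla2 all 4 Prkaca+/- arrays lay above all 4 WT arrays, as for 0.673% of all genes. Lipe differed by 0.39 ± 0.18 (SE) and Pnpla2 by 0.41 ± 0.23, and neither passed. Leptin differed by 0.99 ± 0.50 (95% interval -0.08 to 2.07) and adiponectin by 0.64 ± 0.47 (95% interval -0.38 to 1.66). On Prkaca+/- 4 the median difference of the 22 genes from the mean of bone without lesion was 0.41, against 0.03 to 0.08 on the other 3 Prkaca+/- arrays and -0.37 to 0.06 on the WT arrays. Without Prkaca+/- 4 the median over the members was 0.14.

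Wider lists of lipid genes that are not members moved unevenly between lesions and bone without lesion. Their counts are to be read beside the 25.8% of all genes that were lower and the 26.2% that were higher, and several lie close to these shares. In the control of lipolysis, 10 of 12 genes were tested, 4 fell, 2 rose and the median was 0.06. The carboxylesterase Ces1d, a triglyceride hydrolase of fat and liver, fell most (-1.88 ± 0.25, SE), followed by G0s2, an inhibitor of Pnpla2 (-1.74 ± 0.30). Hilpda, another inhibitor of Pnpla2, which is induced by hypoxia, rose by 0.90 ± 0.12 (SE), and its other tested probe gave 0.41 ± 0.11. Fabp5, a fatty acid carrier of skin and macrophages, passed as higher, but it was detected on 1 of 8 arrays without lesion and on 5 of 5 lesion arrays (4.74 to 5.55 and 5.98 to 7.06), and no fold is given. Abhd5, the activator of Pnpla2, fell by 0.50 on the log2 scale, and was named after its value was seen.

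Among 24 tested genes of triglyceride and fatty acid synthesis (27 listed), 9 rose and 8 fell, with a median of 0.33. The falls were led by Fitm1, a droplet-forming protein of muscle (-2.15 ± 0.28, SE), and Mlxipl, the glucose-sensing lipogenic factor (-2.13 ± 0.31). The desaturase Fads2, detected on 4 of 8 arrays without lesion, rose by 1.25 ± 0.18 (SE). The citrate carrier Slc25a1, which supplies Acly, rose by 1.24 ± 0.15, and its other tested probe gave 0.98. Of 14 tested regulators and precursor genes (19 listed), 6 fell and 2 rose, with a median of -0.30. Klf5 (-1.29 ± 0.25, SE) and Ebf2 (-1.09 ± 0.31), both known to promote fat cell differentiation, fell most. Pdgfra, a receptor of stromal and fat precursor cells, rose by 0.89 ± 0.20 (SE). Gata3, known to hold back fat cell differentiation, passed as higher, but it was detected on 1 of 8 arrays without lesion and on 4 of 5 lesion arrays (4.60 to 5.40 and 5.01 to 6.85), and no fold is given.

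Insulin response genes gave 1 fall among 5 tested (8 listed, median -0.34), that of the glucose transporter Slc2a4 of muscle and fat (-2.18 ± 0.37, SE). In the list of fat cell membrane and caveolae, 6 of 10 fell and none rose (median -0.50), led by Sncg (-1.41 ± 0.15, SE) and Aoc3 (-1.39 ± 0.20). Among 6 tested brown and beige fat genes (9 listed, median -1.24), 3 fell and 1 rose. Cox7a1 (-2.53 ± 0.46, SE) and Ppargc1a (-2.21 ± 0.45), both also expressed in muscle, fell most. The gene counted as higher was Dio2, detected on 0 of 8 arrays without lesion and on 2 of 5 lesion arrays (4.58 to 4.95 and 4.77 to 5.30), so that its level without lesion is only bounded and no fold is given. Ucp1, the uncoupling protein that defines brown fat, was detected on 6 of 13 arrays and did not pass (-0.39 ± 0.41, SE). All 10 tested genes of mitochondrial fatty acid oxidation (12 listed) fell, with a median of -0.84, led by Cpt1b (-2.34 ± 0.47, SE), the muscle form of the carnitine transferase, and Acadl (-1.34 ± 0.17), whose 2 other tested probes gave -0.53 and -1.05. Of the 18 tested skeletal muscle markers 13 fell in the same comparison, with the list's mean on each lesion array given above, and its part in them was not tested.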

How the data were processed

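Total RNA of tail vertebral bone and bone lesions was labelled with biotin and hybridised to Illumina bead arrays, per the labels. The deposited intensity of each probe carries a detection p-value, per the file headers. Intensities with a detection p-value above 0.1 were left empty in the deposited table and were filled from that p-value through each array's own background line (intensity against the normal quantile of p from 0.01 to 0.1). The deposited scores, used as an alternative, proved to be each array's intensity minus its mean over its standard deviation, on a linear scale, and their column medians ran from -0.180 to -0.160. Scanner settings and any background subtraction before deposit were not given in the sources used here.

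Intensities were corrected by normexp with the mean and SD of that background line and an offset of 16, quantile normalised and taken as log2, so fold changes of dim genes are understated. Probes with a detection p under 0.01 on 2 or more of the 13 arrays were kept (16226 probes, 10992 named genes). limma 3.58.1 in R 4.3.3 fitted one mean for each of the 4 groups with 9 residual degrees of freedom, 6 comparisons and Benjamini-Hochberg adjustment over all probes at 0.05. A gene is its probe with the highest mean. Where a probe was detected on no array of a group, its fold is a bound. It is set against the lowest detected signal of each array or the probe's own value, whichever was higher. It uses group means and leaves out sampling error. Of 25697 probes, 23978 had 1 gene symbol, 0 several and 1719 none, and 23962 matched RefSeq by gene ID. The number of arrays limits the precision. Simulated data had 200 changed probes among 16226. There the comparison of lesion with non-lesion recovered 24.5% at a log2 change of 0.5, 86% at 1 and 98% at 2. The data held a far larger share of called genes, so these rates need not carry over. The other comparisons were not simulated. No pair of arrays held equal values (highest r = 0.989).

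Every tested member is named, those past the threshold with values on each array, and each wider list is named by its 2 largest rises and falls between lesion and non-lesion. The members, lists and tests were chosen with earlier results of these data known. Replicate numbers were not used as pairs: over 16 same-numbered pairs of arrays from different groups, deviations from the group means correlated at -0.24 to 0.36 (median -0.01), with 6 above 0.1. Alternatives were no background correction, 75th percentile scaling, other detection filters, the median of a gene's probes, the replicate number as a block, the muscle list mean as a covariate, the deposited scores and leaving out each array.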

Additional observations from a re-analysis of the deposited data

Results flagged for a closer look

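In 64 groups of 4 arrays (32 genes in WT and in Prkaca+/- bone), 6 had an array whose distance from its nearest neighbour was a large share of the group's range, above Dixon's critical value of 0.829. Chance flags about 1 in 20 groups, and the arrays of one gene set are not independent. Prkaca+/- 4 was the high array in 3 of the 6. Lpl lay at 13.97 there against 13.19 on the next array, Dgat2 at 11.10 against 10.64, and Lipe at 7.11 against 6.82. Pck1 was low in Prkaca+/- 2 at 6.46, with the next array at 7.23. In WT, Thrsp was low on array 4 at 5.05, with the next at 5.67, and Pnpla2 was low on array 2 at 11.80, with the next at 11.91.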

How the results depend on the processing

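Between lesion and non-lesion, 22 members fell and 1 rose, with 21 to 22 falls, 0 to 1 rises and a median of -1.08 to -0.92 when each array was left out in turn. The median moved to -0.67 without background correction and to -0.66 with the muscle list as a covariate. The rise of Acly was lost (0 rises) with 75th percentile scaling and with the muscle covariate. Falls numbered 14 among the 22 members detected on every array and 12 with the muscle covariate. Shares over all genes are given above for the main fit and the muscle covariate only. Against WT, Prkar1a+/- lesions gave 17 falls, 10 to 19 when each array was left out (10 without Prkar1a+/- lesion 2, 11 without WT 1), 0 to 1 rises and a median of -0.95 to -0.48. The muscle covariate left 0 falls and a median of -0.30, and skipping the background correction gave -0.47. Against Prkaca+/- bone, double heterozygote lesions gave 21 falls, 11 to 21 when each array was left out (11 without double heterozygote lesion 1, 14 without lesion 2), 0 to 1 rises and a median of -1.32 to -1.15. The median was -0.94 under the muscle covariate and -0.82 on uncorrected intensities, and 13 fell among members detected on every array. Fewer members were tested under that filter, and the cause of the other moves was not tested. The replicate number as a block, which the design does not support as a pairing, gave 22 falls and 1 rise between lesion and non-lesion, 15 falls against WT and 18 against Prkaca+/-. The deposited scores (30 members tested) gave 18 falls and 1 rise, 12 falls and 15 falls in these comparisons. Leaving out each array moved the median of Prkaca+/- against WT from 0.14 to 0.31, of double heterozygote against Prkar1a+/- lesions from -0.25 to 0.0023, and of the difference between both lesion effects from -0.48 to -0.23, with 0 calls throughout. No member's called difference changed sign under any alternative run for the first 4 comparisons, and 58 uncalled differences did. No scaling alternative moved the median of all genes by over 0.1. Signal near background limits Aqp7, Thrsp, Fasn, Fabp4 and Retn, Cyp2e1 and Plin5 in double heterozygote lesions, and Plin1, Cidea, Cd36, Pck1 and Srebf1 on 1 or 2 lesion arrays each.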
